A study of Mus musculus with 5 samples.

Results

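Transcripts of 10 acute-phase and antimicrobial secreted proteins were followed in dendritic cells of the mouse thymus 4 days after total body irradiation (TBI). The genes were Saa1, Saa2, Saa3, Hp, Lcn2, Slpi, Camp, Ngp, Ltf and Retnlg, found by symbol among the 18051 genes of the count table. They had been chosen with their difference between TBI and untreated libraries known, so their values on that contrast are given as a description with no test. C57BL/6J mice harvested 4 days after TBI gave 3 libraries (TBI replicates 1 to 3) and untreated C57BL/6J mice gave 2 (untreated replicates 1 and 2). All mice were 6 to 8 weeks old, and per the labels cells of pooled, digested thymi were sorted as positive for CD45, CD11c and MHC class II. Whether each replicate was a pool of its own is not stated, so p-values measure only the spread between these samples, which may be technical.

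Acute-phase proteins are secreted in large amounts when inflammatory cytokines such as interleukin-6 and interleukin-1 act on the liver and, for some of them, on other tissues. Serum amyloid A proteins are lipid-binding members of this class: in mice Saa1 and Saa2 are made mainly by the liver, and Saa3 by macrophages, adipose cells and epithelia. A second group, including cathelicidin (Camp), neutrophilic granule protein (Ngp) and lactoferrin (Ltf), is made by developing neutrophils and packed into their secondary granules. Lipocalin-2 (Lcn2) and haptoglobin (Hp) belong to both groups.

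Total counts ran from 7549053 to 8428589 in the TBI libraries and from 7227000 to 7346330 in the untreated libraries, so that 1 count equalled 0.123 to 0.145 CPM, the count scaled to library size with the TMM correction for library composition. Libraries of 1 group differed by more than counting error, with a chi-square per gene of 9.79 to 28.2 between TBI libraries and 4.90 between untreated libraries, where pure counting error gives about 1. TBI replicate 1 was the farthest from the other TBI libraries. Of 12046 genes tested with edgeR's quasi-likelihood test, 23.1% passed a Benjamini-Hochberg adjusted p of 0.05, with 13.3% higher and 9.79% lower in the TBI libraries. Of 12 dendritic cell markers 0 were higher and 9 were lower in the TBI libraries, among them Flt3 (log2 fold change -3.15 ± 0.15, SE), and their summed level was 38524 to 54519 CPM in TBI libraries, against 58163 to 59263 CPM in untreated libraries. Cd74, H2-Ab1 and H2-Aa, of the MHC class II pathway used in the sort, made up nearly all of that sum, and the other 9 markers summed to 1396 to 1582 CPM in TBI libraries, against 4389 to 4556 CPM in untreated libraries. In bulk libraries such as these, fewer cells of a type and less RNA per cell cannot be told apart.

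Among the serum amyloid genes, Saa3 carried nearly every count and lay far higher in the TBI libraries. Saa3 had 7457, 3510 and 3247 counts in the TBI libraries, against 5 and 3 counts in the untreated libraries. As levels these were 1078, 444 and 424 CPM in TBI libraries, against 0.617 and 0.379 CPM in untreated libraries. The groups lay far apart, and within the TBI group replicate 1 was 2.54 times the lowest library. The means were 648.7 ± 372 CPM in TBI libraries and 0.498 ± 0.168 CPM in untreated libraries (SD, n = 3 and n = 2). The log2 fold change was 10.30 ± 0.71 (SE). As pooled counts, 14214 in TBI libraries against 8 in untreated libraries, the ratio was 1266 with a 95% exact binomial interval of 642 to 2933, which covers counting error only.

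The liver-type paralogs were almost unread in the same libraries. Saa1 had 0, 0 and 1 count in TBI libraries, against 0 and 0 in untreated libraries. Saa2 had 0, 0 and 2 counts in TBI libraries, against 0 and 0 in untreated libraries. Both lay under the floor of 3 counts in every library, so no fold is given and neither entered the test. The 3 genes are neighbours on chromosome 7 (GRCm38, the build also called mm10): Saa3 at 46711998 to 46715700, Saa1 at 46740497 to 46742980 and Saa2 at 46751790 to 46754313. The longest coding transcripts of Saa1 and Saa2 were 94.4% identical over 606 aligned bases, with identical runs of up to 76 bases, so their few reads may be shared. Between Saa1 and Saa3 the best local alignment took in 47 bases, at 85.1% identity, and the longest identical run was 12 bases. The length of a local alignment depends on its scoring and does not measure how far these genes are related.

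The bases upstream of Saa3 and Saa1 are shown because these neighbouring paralogs differed so widely in counts, and those upstream of Ngp and Ltf because both are granule genes whose counts moved together. Capitals mark matches on either strand to TTNNGNAA, a loose form of the site bound by C/EBP factors, which act in acute-phase and granulocyte gene control. Sequences come from RefSeq's GRCm38.p6 table, read 5′ to 3′ on the gene's strand, and end before the first base that either RefSeq or GENCODE M21 counts as transcribed.
Saa3, chr7:46715701-46715926, minus strand: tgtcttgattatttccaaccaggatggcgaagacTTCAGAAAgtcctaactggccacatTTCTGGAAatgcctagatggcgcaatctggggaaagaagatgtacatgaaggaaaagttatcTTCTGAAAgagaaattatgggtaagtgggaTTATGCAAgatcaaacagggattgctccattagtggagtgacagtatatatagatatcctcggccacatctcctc
Saa1, chr7:46742981-46743230, minus strand: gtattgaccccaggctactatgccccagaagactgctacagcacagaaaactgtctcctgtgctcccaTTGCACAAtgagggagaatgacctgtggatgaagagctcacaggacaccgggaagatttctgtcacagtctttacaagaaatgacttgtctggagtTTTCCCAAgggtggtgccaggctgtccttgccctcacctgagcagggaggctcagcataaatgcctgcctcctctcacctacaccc
Ngp, chr9:110419558-110419746, plus strand: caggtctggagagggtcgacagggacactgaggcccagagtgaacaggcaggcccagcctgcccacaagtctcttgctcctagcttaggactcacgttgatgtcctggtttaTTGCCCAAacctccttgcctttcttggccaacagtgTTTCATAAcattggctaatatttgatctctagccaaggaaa
Ltf, chr9:111019042-111019270, plus strand: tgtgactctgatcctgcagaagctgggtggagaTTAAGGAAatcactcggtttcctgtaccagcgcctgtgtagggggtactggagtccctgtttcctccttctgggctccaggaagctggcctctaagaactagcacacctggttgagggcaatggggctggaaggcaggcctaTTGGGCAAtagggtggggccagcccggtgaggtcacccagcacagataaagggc

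In the full 250 bases before the RefSeq start, 8 of the 9 genes with an entry held TTNNGNAA, as did 36.8% of all 32851 RefSeq promoters of that length. Saa3 held 4 matches, Ngp and Slpi 3 each, Saa1 and Ltf 2 each, Saa2, Lcn2 and Retnlg 1 each, and Camp 0. GGG and CC with 5 bases of any kind between them, a loose form of the NF-kB site, was in 4 of the 9 (Saa1, Saa2, Lcn2 and Ltf) and in 45.8% of all promoters. TTCNNNGAA, a STAT-type site, was in 0 of the 9 and in 7.02% of all promoters, and GAGGAA, a core of the site of ETS factors, was in 2 of the 9 (Lcn2 and Ltf) and in 23.3%. Matches to different motifs overlapped 0 times in these genes. A match is a run of letters and not a measured binding site.

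Slpi, Hp and Retnlg were also higher in every TBI library than in either untreated library. Slpi, which encodes an inhibitor of neutrophil elastase and other serine proteases, had 543, 332 and 240 CPM in TBI libraries, against 54.7 and 58.8 CPM in untreated libraries. Its untreated libraries nearly coincided, and its mean was 371 ± 156 CPM in TBI libraries and 56.7 ± 2.91 CPM in untreated libraries (SD, n = 3 and n = 2; log2 fold change 2.71 ± 0.33). Retnlg, a resistin-like cytokine of mouse neutrophils and myeloid cells, had 78.8, 42.8 and 27.4 CPM in TBI libraries, against 8.89 and 11.9 CPM in untreated libraries (2.25 ± 0.44). Its 5 values kept the order of Slpi, highest in TBI replicate 1 and lowest in untreated replicate 1. Hp, which binds free haemoglobin, had 46.1, 15.6 and 28.2 CPM in TBI libraries, against 0.370 and 7.71 CPM in untreated libraries. The untreated Hp values came from 3 and 61 counts, and its log2 fold change of 2.89 ± 0.85 became 6.27 without untreated replicate 2 and 1.95 without untreated replicate 1. Of the 8 genes that passed the filter on low counts, 4 (Saa3, Slpi, Hp and Retnlg) had all TBI libraries above all untreated ones and the other 4 overlapped. Over all tested genes 56.1% had groups that did not overlap, 27.8% with TBI above. As the genes had been chosen on this contrast, nothing is read from the count of 4.

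**Figure D1:**
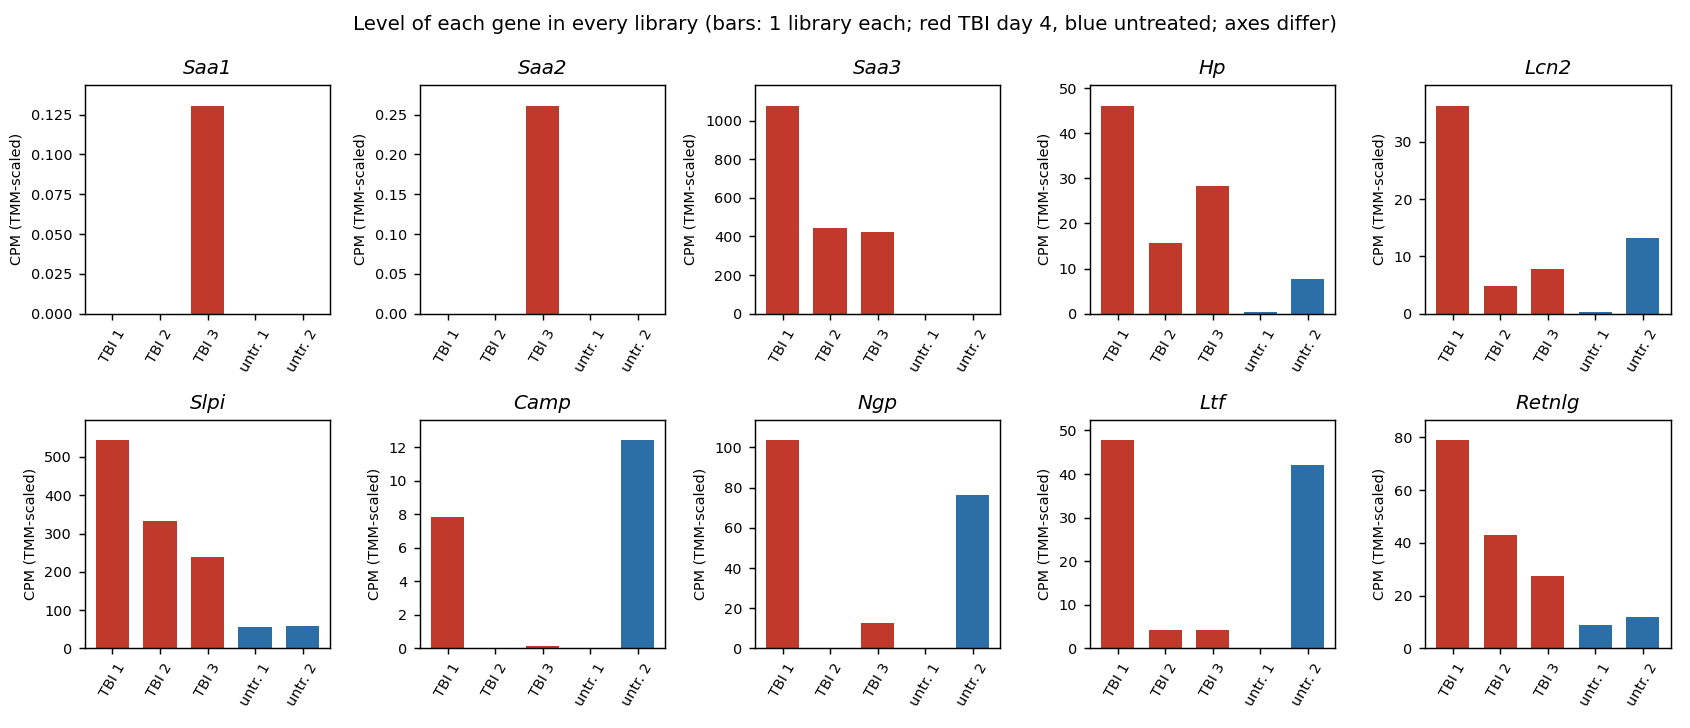
Level of each of the 10 genes in every library, in CPM scaled by TMM, with 1 bar per library, TBI libraries in red and untreated libraries in blue, and an axis of its own for each gene that starts at 0. Saa3, Slpi, Hp and Retnlg are higher in all 3 TBI libraries than in both untreated ones, while Camp, Ngp and Ltf stand out in TBI replicate 1 and untreated replicate 2.

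Retnlg has a near relative, Retnla, whose reads it could in part share. Retnla, a resistin-like protein made by alternatively activated macrophages, rose to 5272, 6242 and 4078 CPM in TBI libraries, against 35.9 and 30.1 CPM in untreated libraries (7.30 ± 0.25; edgeR adjusted p = 3.01e-06). The genes lie 28.2 kb apart on chromosome 16, and their longest coding transcripts were 85.5% identical over 585 aligned bases, with identical runs of up to 49 bases. The Retnlg count was 1.49%, 0.686% and 0.673% of the Retnla count in TBI libraries, against 24.7% and 39.5% in untreated libraries. The ratio was thus not fixed between libraries. How multiply mapped reads were counted is not given in the sources used here, so the part of such reads in the Retnlg values was not tested.

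The neutrophil granule genes Ngp, Ltf, Camp and Lcn2 were high in 1 library of each group. Ngp, a cathelicidin-related protein of secondary granules, had 716, 0 and 98 counts in TBI libraries, against 0 and 603 counts in untreated libraries. Ltf, an iron-binding protein of the same granules, had 330, 33 and 33 counts in TBI libraries, against 1 and 333 in untreated libraries. Camp, the precursor of the antimicrobial peptide CRAMP, had 54, 0 and 1 counts in TBI libraries, against 0 and 98 in untreated libraries. The highest value of each group thus stood in TBI replicate 1 and untreated replicate 2, and untreated replicate 1 had at most 1 count of any of the 3 genes. Lcn2, which starves bacteria of iron by binding their siderophores, had 251, 38 and 60 counts in TBI libraries, against 2 and 104 in untreated libraries, and so showed the same pair of high libraries.

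Set side by side, the group means of these genes lay within their spread. Ngp averaged 38.8 ± 56.4 CPM in TBI libraries and 38.1 ± 53.9 CPM in untreated libraries (SD, n = 3 and n = 2; difference on the log2 scale 0.02 ± 1.71, SE). Ltf averaged 18.7 ± 25.1 CPM in TBI libraries and 21.1 ± 29.7 CPM in untreated libraries (-0.18 ± 1.39). Camp averaged 2.64 ± 4.47 CPM in TBI libraries and 6.19 ± 8.76 CPM in untreated libraries (-1.25 ± 1.69), and Lcn2 averaged 16.3 ± 17.4 CPM in TBI libraries and 6.70 ± 9.12 CPM in untreated libraries (1.28 ± 1.15). Leaving out untreated replicate 2 moved the log2 fold change to 11.21 for Ngp, 7.06 for Ltf, 7.33 for Camp and 5.95 for Lcn2. Leaving out TBI replicate 1 moved it to -2.58 for Ngp, -2.31 for Ltf, -6.27 for Camp and -0.08 for Lcn2. The sign of each of these 4 genes was therefore set by which library was kept.

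Differences between libraries of the same group do not enter the contrast on which the genes had been chosen. Here the granule genes stood at the head of the tested genes. Each difference set the library with high granule gene counts against the rest of its group. The ranks therefore describe that pattern and do not test it. The ranks hold for tested genes only, as the filter on low counts removed genes read in 1 library alone. Elane, with 0 and 216 counts in untreated replicates 1 and 2, was such a gene. Camp passed the filter through TBI replicate 1 (54 counts) and untreated replicate 2 (98 counts). Between untreated replicate 2 and untreated replicate 1, the difference in log2 CPM was 8.20 for Ngp, 6.79 for Ltf and 5.61 for Camp, which ranked 1, 2 and 3 of 12046 tested genes. Lcn2 (4.73) ranked 5 and Hp (3.66) ranked 10. The same difference over all tested genes had an SD of 0.412, and 96.9% of genes differed by less than 1. Between TBI replicate 1 and the mean of the other TBI libraries the SD over all tested genes was 0.721 and 88.4% differed by less than 1, and Ngp (5.82) again ranked 1, Camp (4.66) 3, Ltf (3.41) 8 and Lcn2 (2.51) 34. Saa3, by contrast, ranked 11134 in the first of these lists, with a difference of -0.46, and 246 in the second, with 1.31. Slpi ranked 3603 and 525, and Retnlg 921 and 316. Of 32 other genes on the neutrophil lists 23 (71.9%) were higher in untreated replicate 2 than in untreated replicate 1, against 49.4% of all tested genes. Of the same 32 genes 13 (40.6%) had their highest TBI level in replicate 1, against 39.6% of all tested genes. These shares are not fully alike: 4 of the 32 had 0 counts in every TBI library and could not be highest there. Only 23 of the 12046 tested genes had 0 counts in every TBI library, and some of the 32 were not tested.

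**Figure D2:**
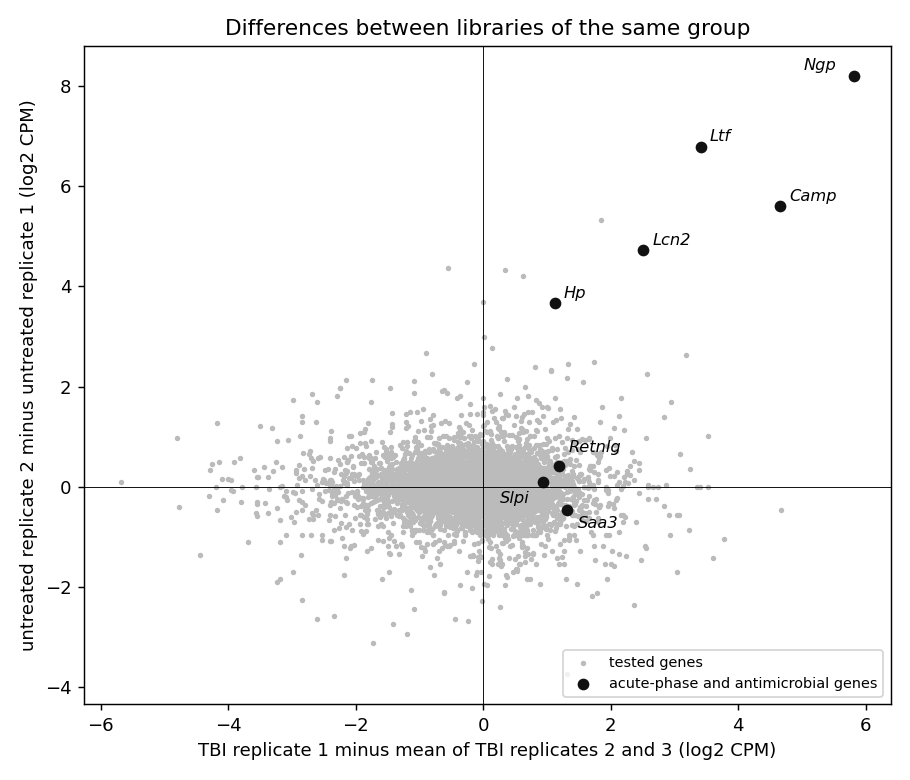
Difference in log2 CPM between untreated replicates 2 and 1 (vertical axis) against that between TBI replicate 1 and the mean of TBI replicates 2 and 3 (horizontal axis), with 1 point per tested gene and the 8 tested acute-phase and antimicrobial genes in black. Ngp, Ltf, Camp and Lcn2 lie at the upper right, where S100a8 is the nearest grey point, while Saa3, Slpi and Retnlg lie near 0 on the vertical axis and at 0.95 to 1.31 on the horizontal axis.

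A count ratio within a library does not depend on the scaling between libraries, and it set Saa3 against the granule genes directly. Saa3 had 4.53, 9.46 and 9.49 counts for each summed count of Camp, Ngp, Ltf and Retnlg in TBI libraries, against 0.0685 and 0.00266 in untreated libraries. The groups did not overlap in this ratio, but Retnlg was 72 of the 73 granule counts of untreated replicate 1. For Camp, Ngp and Ltf alone the ratio was 6.78, 106 and 24.6 in TBI libraries, against 5 counts to 1 in untreated replicate 1 and 0.00290 in untreated replicate 2. The 95% exact binomial interval of the ratio in untreated replicate 1 ran from 0.559 to 236 and took in all TBI values, so without Retnlg that library could not be told from the TBI libraries at this depth. The summed level of the 4 genes was 238, 47.0 and 44.7 CPM in TBI libraries, against 9.01 and 143 CPM in untreated libraries, and so overlapped between the groups. TBI replicate 2 had 0 counts of Ngp and Camp beside 3510 counts of Saa3, and untreated replicate 2 had 603 counts of Ngp beside 3 of Saa3. Saa3 made up 55.5%, 52.7% and 56.9% of all counts of the 10 genes in TBI libraries, against 0.951% and 0.170% in untreated libraries. Expressed per length, as CPM per kb of annotated exons, Slpi (315) and Saa3 (249) had the highest mean levels of the 10 in TBI libraries, followed by Retnlg (83.7) and Ngp (31.7). The length was the union of exons over all annotated transcripts, 2606 bases for Saa3 and 1180 for Slpi. Such a union can be longer than the main transcript, so the order of Slpi and Saa3 depends on it. In CPM without this division Saa3 had the higher TBI mean, 648.7 against 371. In TBI replicate 1 Slpi and Saa3 were at 460 and 414 CPM per kb, a gap smaller than the spread of either gene between TBI libraries. In untreated libraries Slpi (48.1) and Ngp (31.2) had the highest mean CPM per kb and Saa3 stood at 0.191.

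**Figure D3:**
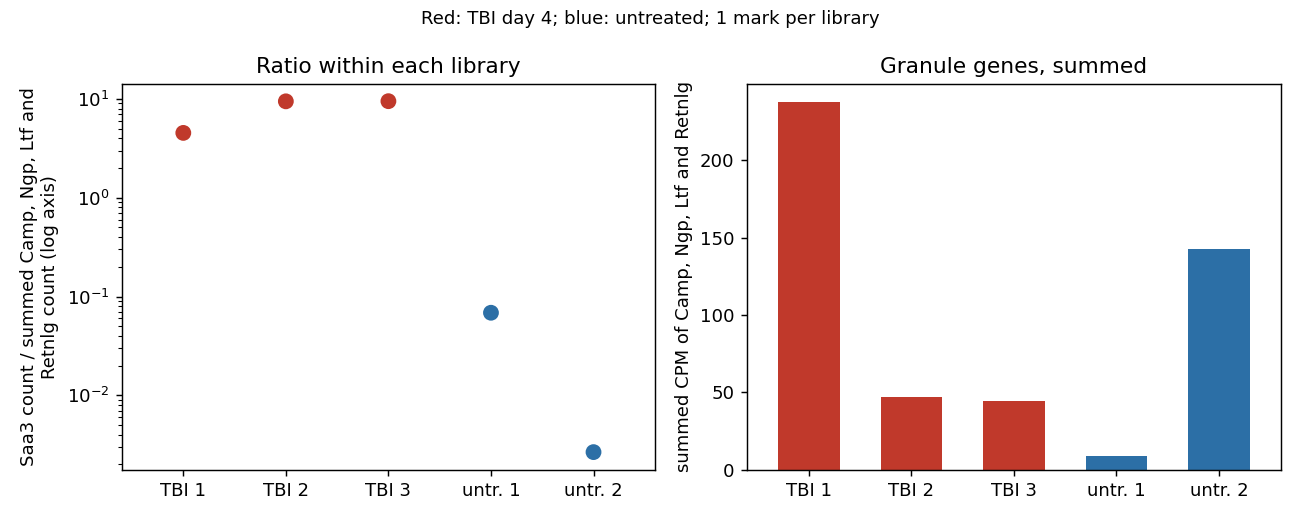
Left, the Saa3 count divided by the summed count of Camp, Ngp, Ltf and Retnlg in each library, on a log axis; right, the summed level of those 4 genes in CPM, with TBI libraries in red and untreated libraries in blue. The ratio is 4.53 to 9.49 in TBI libraries and 0.00266 to 0.0685 in untreated libraries, whereas the summed level is highest in TBI replicate 1 (238 CPM) and untreated replicate 2 (143 CPM).

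Among other neutrophil genes, 4 of the 7 on the list of primary granules, which are made earliest, had 0 counts in every TBI library and most of their counts in untreated replicate 2. Mpo, the myeloperoxidase, had 0 counts in every TBI library, against 67 and 872 in untreated libraries, which is at least 148-fold lower when each TBI library is put at 3 counts, or at least 20.6-fold with untreated replicate 1 alone. Elane, neutrophil elastase, had 0 in every TBI library, against 0 and 216 in untreated libraries. Ms4a3, a gene of granulocyte and monocyte progenitors, had 0 in every TBI library, against 7 and 61 in untreated libraries. Ctsg, cathepsin G, had 0 in every TBI library, against 18 and 53 in untreated libraries, at least 11.1-fold lower, or 5.53-fold with untreated replicate 1 alone. Prtn3, the proteinase of the same granules, instead had 83, 75 and 72 counts in TBI libraries, against 1 and 59 in untreated libraries. Of the 7 genes on the primary granule list 5 were tested, 3 of them fell (Mpo, Ctsg and Gfi1, edgeR adjusted p = 0.00683, 0.00740 and 0.0103), 0 rose and 2 did not pass. Gfi1 and Cebpe on that list encode transcription factors and not granule proteins. Gfi1 had 60, 33 and 103 counts in TBI libraries, against 245 and 282 in untreated libraries. All 7 genes on the list were higher in untreated replicate 2 than in untreated replicate 1. Without untreated replicate 2 only 1 (Mpo) fell, and limma-voom (adjusted p = 0.166) and robust shrinkage (0.0875) did not call Mpo.

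Most genes on the lists for later granules and for mature neutrophils did not pass. Of 11 genes on the later-granule list, all outside the set, 3 rose (Mmp9, Padi4 and Cybb), 1 (Mmp25) fell and 7 did not pass. That list also holds genes not confined to granules or to neutrophils, such as Padi4, Ltb and Cybb. Of 11 tested genes on the mature neutrophil list 5 rose (Clec4d, Ifitm6, Trem1, Il1r2 and Csf3r), 0 fell and 6 did not pass. Mmp9, a gelatinase also made by macrophages, had 5.31 ± 0.32 on the log2 scale (adjusted p = 1.71e-05), and Trem1, a receptor of neutrophils and monocytes, 3.38 ± 0.32 (0.000168). The calprotectin genes S100a8 and S100a9, which fill the neutrophil cytosol, did not pass: S100a8 had 916, 228 and 353 counts in TBI libraries, against 10 and 473 in untreated libraries, and S100a9 had 941, 388 and 451 in TBI libraries, against 98 and 531 in untreated libraries. Mmp8, the neutrophil collagenase, had 217, 8 and 71 counts in TBI libraries, against 4 and 35 in untreated libraries. The list sums were 1466 to 1719 CPM in TBI libraries against 752 to 777 CPM in untreated libraries for later granules, and 1051 to 1125 CPM in TBI libraries against 462 to 639 CPM in untreated libraries for mature neutrophils. Cybb made up most of the later-granule sum, with 890, 1107 and 857 CPM in TBI libraries, against 583 and 585 CPM in untreated libraries. That sum is thus not a measure of neutrophil granule transcripts alone. Ly6g was not analysed here. The part of neutrophil transcripts in the values of the other genes was not tested, and of the libraries with 0 Ngp counts TBI replicate 2 had 444 CPM of Saa3 and untreated replicate 1 had 0.617 CPM.

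**Figure D4:**
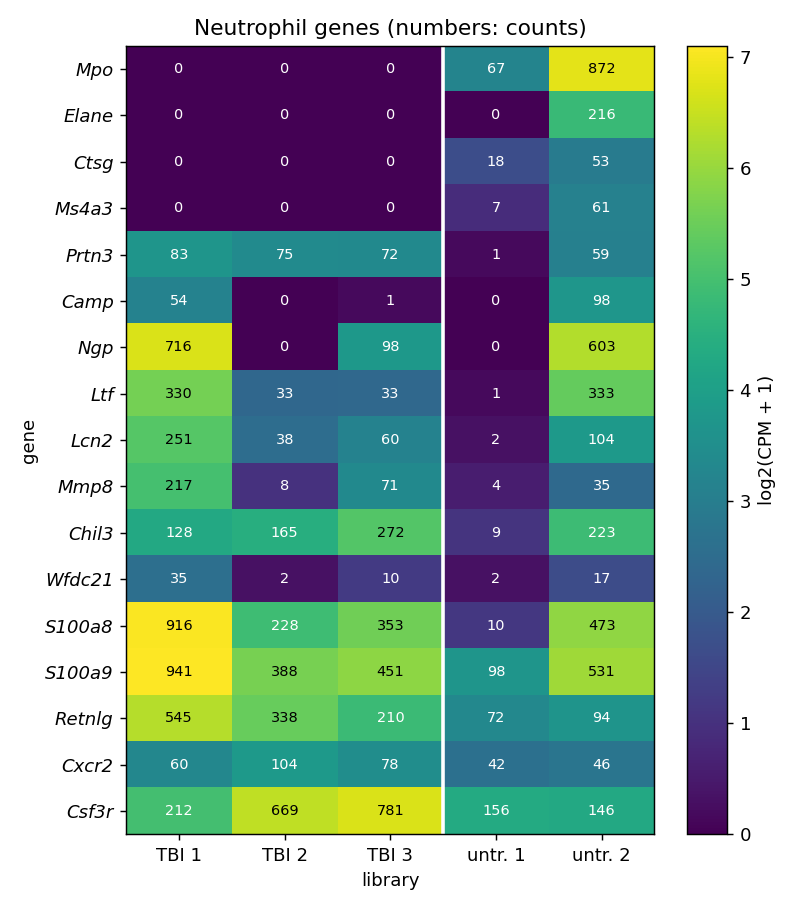
Neutrophil genes (rows, from primary granule genes at the top to genes of mature cells at the bottom) in every library (columns, TBI left of the white line and untreated right), coloured by log2(CPM + 1) with the count printed in each cell. Mpo, Elane, Ctsg and Ms4a3 have 0 counts in every TBI library, while Ngp, Ltf, Camp and Lcn2 are highest in TBI replicate 1 and untreated replicate 2.

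Genes upstream of the acute-phase response were mostly higher in the TBI libraries. Of 8 tested inducing cytokines 5 rose (Il6, Osm, Il1a, Tnf and Il1b), 0 fell and 3 did not pass, and the list median on the log2 scale was 1.73, also with Il22, at 0 in untreated libraries, put at its lower bound, against -0.01 over all tested genes. Il6 had 141, 138 and 104 CPM in TBI libraries, against 12.1 and 10.5 CPM in untreated libraries (3.50 ± 0.22; edgeR adjusted p = 1.96e-05), and oncostatin M (Osm), a cytokine of the same family, had 221, 196 and 144 CPM in TBI libraries, against 27.5 and 37.4 CPM in untreated libraries (2.52 ± 0.24; 0.000147). Il1b, already abundant, had 2202, 2146 and 1546 CPM in TBI libraries, against 1298 and 1293 CPM in untreated libraries (0.60 ± 0.16; 0.0308). Without untreated replicate 1 the cytokines that rose numbered 3, and Tnf was not called (adjusted p = 0.0608). Of 21 receptors, kinases and transcription factors of the response 11 rose, 1 (Jak2) fell and 9 did not pass. Their median was 0.64, also with Osmr at its bound. Cebpb, a C/EBP factor of acute-phase transcription, had 1421, 1285 and 1154 CPM in TBI libraries, against 160 and 169 CPM in untreated libraries (2.97 ± 0.15; 6.41e-06). Socs3, the feedback inhibitor of interleukin-6 signalling, had 543, 548 and 626 CPM in TBI libraries, against 197 and 163 CPM in untreated libraries (1.67 ± 0.15; 0.000109). The lipopolysaccharide receptor gene Tlr4 (2.64 ± 0.28) and its relative Tlr2 (374 ± 66.0 CPM in TBI libraries, against 93.4 ± 11.8 CPM in untreated libraries) rose, while Stat3, Rela and Nfkb1 did not pass. Those that rose numbered 7 without untreated replicate 2, and those that fell numbered 3 without TBI replicate 1 or with library size alone.

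Of 10 tested genes of other acute-phase proteins 7 rose, 0 fell and 3 (C3, Il1rn and Serpina3g) did not pass; the list median on the log2 scale was 3.72. Lrg1, a leucine-rich glycoprotein of plasma and granulocytes, had 188, 87.1 and 89.1 CPM in TBI libraries, against 0.617 and 1.90 CPM in untreated libraries (6.58 ± 0.57; edgeR adjusted p = 9.90e-05). Like Saa3, it was highest in TBI replicate 1. Unlike Saa3, and like Ngp, Ltf, Camp and Lcn2, it was also higher in untreated replicate 2 (15 counts) than in untreated replicate 1 (5 counts). Lbp, which carries lipopolysaccharide to CD14, had 30.3, 25.1 and 19.1 CPM in TBI libraries, against 0.617 and 0.506 CPM in untreated libraries (5.42 ± 0.40; 3.85e-05). The metallothionein Mt1 (3.22 ± 0.22), the platelet and macrophage chemokine Pf4 (6.19 ± 0.23), Mt2, Cp, which encodes ceruloplasmin, and Steap4 also rose. Of the same list Hpx, Fga, Fgg, Itih3 and Itih4 had 0 counts in every library, and Orm1 had 2, 0 and 6 counts in TBI libraries, against 0 and 4 in untreated libraries. Of 5 hepatocyte markers in the table only transferrin (Trf), which macrophages also make, had more than 2 counts in any library, and Ahsg and Apoa1 had 0 in every TBI library.

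Receptors for the proteins encoded by these genes, and other antimicrobial genes, were also mostly higher. Of 12 tested receptors 10 rose, 0 fell and 2 did not pass; the list median on the log2 scale was 2.56. Cd163, the haptoglobin-haemoglobin receptor, had 153, 243 and 320 CPM in TBI libraries, against 23.4 and 12.8 CPM in untreated libraries. The formyl peptide and serum amyloid receptor gene Fpr2 had 34, 34 and 57 counts in TBI libraries, against 6 and 3 in untreated libraries. The lipocalin-2 receptor gene Slc22a17 had 35, 29 and 46 counts in TBI libraries, against 9 and 5 in untreated libraries. All 3 passed (edgeR adjusted p = 0.000262, 0.00616 and 0.0175). Cd14 (4.10 ± 0.19), the integrin Itgam (3.11 ± 0.24) and Lrp1 (3.06 ± 0.25), an endocytic receptor of lactoferrin, rose as well. Of 19 tested antimicrobial genes 10 rose, 2 (Mpeg1 and Rnase6) fell and 7 did not pass; the list median was 1.65. The lysozyme gene Lyz1 had 2722, 1831 and 2219 CPM in TBI libraries, against 67.1 and 47.8 CPM in untreated libraries (5.30 ± 0.25; 6.37e-06), Rnase4 rose by 4.00 ± 0.21 on the log2 scale, and Mpeg1, which encodes the pore-forming perforin-2, fell by 1.78.

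**Figure D5:**
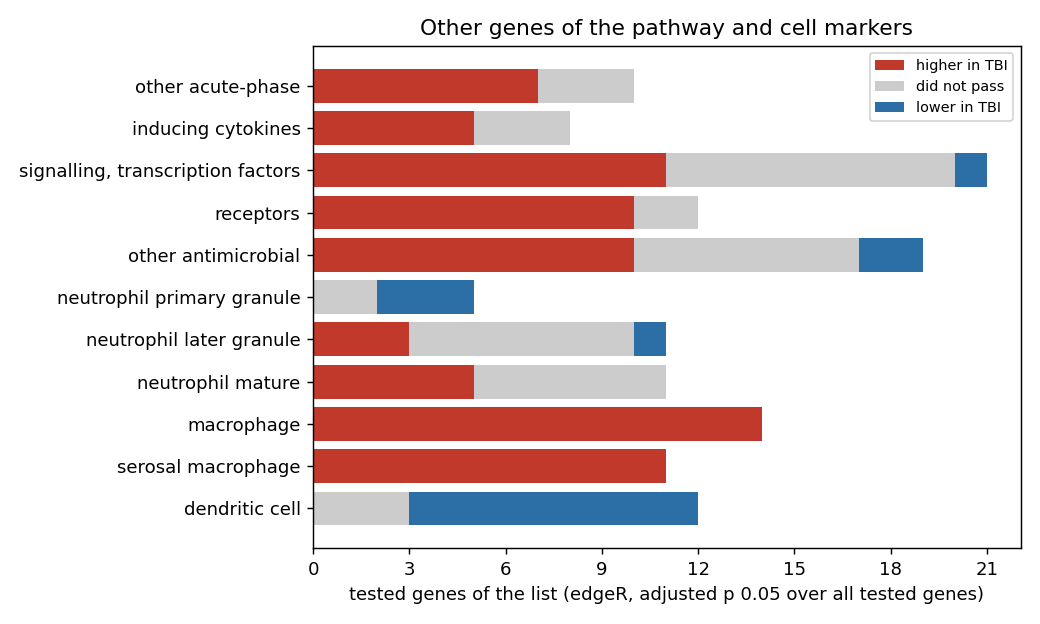
Number of tested genes in lists of other pathway genes and cell markers (rows) that were higher in TBI (red), did not pass (grey) or were lower in TBI (blue), by edgeR at an adjusted p of 0.05 over all tested genes. All 14 macrophage markers and all 11 genes on the serosal macrophage list were higher, 9 of 12 dendritic cell markers were lower, and neutrophil lists were mixed. Over all tested genes 13.3% were higher and 9.79% lower.

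Some lists of markers of other cells were higher in the TBI libraries, as Saa3, Slpi, Hp and Retnlg were, and others were mixed or lower. All 14 macrophage markers and all 11 genes on the list for serosal cavity macrophages rose. The serosal list also holds genes not confined to those cells, such as Folr2, Lyve1 and Fn1, so its rise is not a measure of serosal macrophages alone. The macrophage list summed to 24777, 27002 and 27128 CPM in TBI libraries, against 3793 and 3192 CPM in untreated libraries, and the serosal list to 4913, 6726 and 6030 CPM in TBI libraries, against 415 and 409 CPM in untreated libraries. The macrophage sum was lowest of the TBI group in replicate 1, the library with the highest Saa3. The serosal sum was also lowest there, an order set by Fn1 (1464, 3476 and 3215 CPM in TBI replicates 1 to 3). Other genes on the serosal list differed in their order: Prg4 had 625, 438 and 337 CPM in those libraries, and Lyve1 had 169, 179 and 215 CPM. Gata6, the defining factor of serosal macrophages, had 60, 12 and 46 counts in TBI libraries, against 2 and 0 in untreated libraries. Of 7 tested fibroblast markers 6 rose, or 3 with limma-voom, and their sum was 297, 54.7 and 142 CPM in TBI libraries, against 14.7 to 15.8 CPM in untreated libraries. Pdgfra, a defining fibroblast marker, had 0 counts in every library. Mesothelial markers summed to 1.45, 1.52 and 15.02 CPM in TBI libraries, against 0.740 to 0.885 CPM in untreated libraries. Thymic epithelial markers summed to 75.1 to 97.4 CPM in TBI libraries, against 220 to 233 CPM in untreated libraries, with 3 of 8 tested lower and 0 higher. Those lower were Cdh1, Ly75 and Epcam, while the keratins Krt5, Krt8 and Krt18, and Foxn1 and Psmb11, did not pass. Cdh1 was the largest part of the untreated sum (115 and 117 CPM). A fall of epithelial transcripts as a whole is therefore not read from that sum. Of 8 tested monocyte markers 2 rose, 4 fell and 2 did not pass, at 1844 to 2565 CPM in TBI libraries against 1517 to 1533 CPM in untreated libraries. Platelet, adipocyte and erythroid lists summed to 459 to 625, 18.2 to 31.4 and 0 to 0.289 CPM in TBI libraries, against 9.23 to 10.98, 2.40 to 5.18 and 0.123 to 5.56 CPM in untreated libraries. The part of macrophages, fibroblasts or other cells in the Saa3, Slpi, Hp and Retnlg values was not tested.

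By the root mean squared difference of centred log2 CPM over the 5 libraries, the tested genes most like Saa3 were Cd209g (0.831), Cd209f (1.02), Folr2 (1.06), Prg4 (1.08) and Ms4a8a (1.101). Prg4, which encodes lubricin, had 4323, 3459 and 2578 counts in TBI libraries, against 29 and 10 in untreated libraries. Folr2, a folate receptor of tissue macrophages, had 2796, 3457 and 3090 counts in TBI libraries, against 22 and 7 in untreated libraries. The genes most like Ngp by the same measure were Camp (2.01), Ltf (2.05), Mmp8 (2.27), Lcn2 (2.38) and S100a8 (2.51). Prg4, Folr2 and both Cd209 genes had at most 29 counts in any untreated library. The lists for Saa3 and Ngp shared no gene. This measure includes the group difference on which the genes had been chosen (log2 fold change 10.30 for Saa3 and 0.02 for Ngp). A shared gene was therefore unlikely from the start, and nothing is read from its absence.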

How the data were processed

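RNA of sorted thymic dendritic cells was read in 5 libraries made with a SMART-Seq v4 kit, which adds no molecular identifiers. Per the submitters' processing notes, the aligner was STAR 2.5.2a with mm10, and featureCounts 1.6.0 made the counts. The deposited values are whole-number counts per gene symbol, not normalized, with 0 columns of other samples. Annotation, strand setting, multiply mapped reads and radiation dose are not given in the sources used here. A protocol note gives a different day from the sample titles and tags, whose day 4 was used here.

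The test was that of edgeR 4.0.16, run in R 4.3.3 (TMM, filterByExpr with a minimum count of 10 and a total of 15, quasi-likelihood F-test, group as the only term, Benjamini-Hochberg at 0.05 over 12046 genes). Log2 CPM used a prior count of 2. Functions were tested on simulated data. Loci and exon lengths came from GENCODE M21 and promoters from RefSeq, where 9 of the 10 genes matched. Alignments used Biopython 1.88. Alternatives were DESeq2 1.42.0, limma-voom (limma 3.58.1), other scalings and filters, robust shrinkage, a replicate block, other sums for the Saa3 ratio and each library left out.

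Members and lists were chosen with earlier results of these data known. Named genes were the 10 members, up to 4 called genes of each list by smallest p, else its 2 most abundant, and the 5 genes most like Saa3 and Ngp. Other list genes were named to account for calls or after their values were seen.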

Additional observations from a re-analysis of the deposited data

How the results depend on the processing

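Genes higher in TBI numbered 1599 and ranged from 810 to 2148 when 1 library was left out, and genes lower numbered 1179 and ranged from 423 to 1780, or 2129 with library size alone, a scaling that moved the median log2 fold change of all genes to -0.23 and the share of called genes that were higher to 36.8%, against 57.6% with TMM. Genes of the other lists that were lower numbered 23, and 15 to 27 when 1 library was left out. A lone untreated library was taken to have the spread of the TBI group. The Saa3 log2 fold change stayed between 9.72 and 10.68 over every library left out and between 10.06 and 10.52 over the other settings.

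The pooled ratio of Saa3 to granule counts was 6.03 in TBI and 0.00666 in untreated libraries. In TBI it was 1.34 with Slpi in the sum, 9.21 without Ngp, 11.2 without Retnlg, and 5.39 to 9.48 with 1 library left out. In untreated libraries it was 0.00266 to 0.0685 with 1 left out. The Ngp log2 fold change of 0.02 became -0.0156 with upper quartile scaling and -0.23 with library size alone, which moved the median of all genes to -0.05 and -0.23, so these say nothing of Ngp itself. With 1 library left out the signs turned for Ngp (-2.58 to 11.21), Ltf (-2.31 to 7.06), Camp (-6.27 to 7.33) and Lcn2 (-0.080 to 5.95), and Ltf also had 1.76 with limma-voom and 0.83 with the replicate block, against -0.18. The cause under limma-voom and the block was not tested.

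Replicate numbers did not pair samples: same-numbered libraries had correlations of -0.0160 and -0.00989 in their deviations. With the replicate block 1493 genes were higher and 1284 lower. Members with under 3 counts in a library were not detectable there at this depth.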
